A study of Mus musculus with 11 samples.

Results

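Transcripts of the urea cycle and of ornithine handling were followed in the livers of db/db mice. The group holds 9 genes, the enzymes Cps1, Otc, Ass1, Asl, Arg1 and Nags, the mitochondrial carriers Slc25a15 and Slc25a13, and ornithine aminotransferase, Oat. Members were the array probes designed on a RefSeq transcript of one of these genes, 11 of the 39429 gene probes, and they stand for 9 of the 20144 genes that could be named. All 11 probes were well above background in the liver dye and were measured. The mice were db/db, a strain with a defective leptin receptor that becomes obese and diabetic, and both groups share this genotype. One group received phosphate-buffered saline (PBS, 5 samples, numbered 1, 3, 4, 5 and 6) and the other 3c7.v44 mAb, a monoclonal antibody against the glucagon receptor, at 5 mg/kg (6 samples, called anti-GCGR replicates 1 to 6). The sources used here do not give age, sex, the number of doses or the time between dosing and tissue collection. Each liver RNA was labelled with Cy5 and hybridised beside a commercial pooled mouse reference RNA in Cy3, so that a value below is log2 of liver over reference for one probe. Levels of different genes cannot be ranked on this scale.

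The urea cycle turns ammonia, which is toxic, into urea, and in mammals the whole cycle runs only in the liver. Ammonia and bicarbonate enter as carbamoyl phosphate in the mitochondria of hepatocytes, ornithine carries the carbamoyl group as citrulline into the cytosol, aspartate brings in the other nitrogen, and arginase releases urea and gives ornithine back. Most cycle enzymes are highest in the hepatocytes around the portal vein, whereas Oat sits in the last layer of hepatocytes around the central vein, together with glutamine synthetase. Glucagon is the hormone that raises amino acid breakdown and ureagenesis in the fasting liver, largely through cAMP. The comparison asks how these transcripts differ after an antibody against its receptor. The control was PBS and not another antibody, so effects of blocking the receptor and of receiving any antibody cannot be told apart.

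Median Cy5 signals per array lay between 85 and 110 scanner units over a local background of 26 to 27, no spot was saturated, and the number of arrays limits the precision. One antibody array stood apart. When anti-GCGR replicate 5 was left out, 3866 of the 15931 genes tested were called. Over these genes its median position was 0.194 on a scale where 0 is the PBS mean and 1 the mean of the other antibody arrays. It lay nearer to PBS for 2930 of them (75.8%). The other arrays both picked these genes and set the scale, so any array left out would tend to lie below 1. The same position was not taken for the other antibody arrays. For some genes anti-GCGR replicate 5 lay on the antibody side. Ppargc1a, for instance, was at 1.50 there, under the lowest PBS value of 1.69. Each main result is therefore also given without this array. Whether the samples are 1 per mouse is not in the labels, and p-values below cover only the spread between them, which may be technical.

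Oat, Ass1 and Slc25a15 were lower in the livers of antibody-treated mice, and the other 6 genes did not pass the test. At a threshold of 0.05, 3 of the 9 genes fell and 0 rose (limma on 11 arrays, two-sided, p adjusted by Benjamini-Hochberg across the 15931 genes tested). Oat fell 4.23-fold, Ass1 1.76-fold and Slc25a15 1.69-fold. Over all genes tested, 5.67% were called lower and 9.01% higher (904 and 1435 genes). That balance depended on the processing. It was 2146 lower and 579 higher with median centring in place of loess, and 1184 lower and 979 higher with the scanner software's ratio. With these settings 5 and 3 of the 9 genes fell. The median log2 fold change of the 9 genes was -0.20, against 0.01 over all genes. Below 0 were 8 of the 9, against 7373 of all 15931 genes, and Otc and Nags were at -0.02 and -0.01. These signs depended on the processing, since Cps1 (0.11), Otc (0.19) and Nags (0.17) were above 0 with the scanner software's ratio. With loess but no background correction they were at -0.22, 0.03 and 0.07. Which step of the processing moved them was not tested. When anti-GCGR replicate 5 was left out, 5 of the 9 genes fell, Cps1 and Asl being added. Of all genes 24.3% were then called in either direction and 9.86% called lower. In none of the 9 genes were the groups free of overlap when all arrays were used, against 6.67% of all genes. Without that replicate Oat and Ass1 did not overlap, against 17% of all genes.

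**Figure D1:**
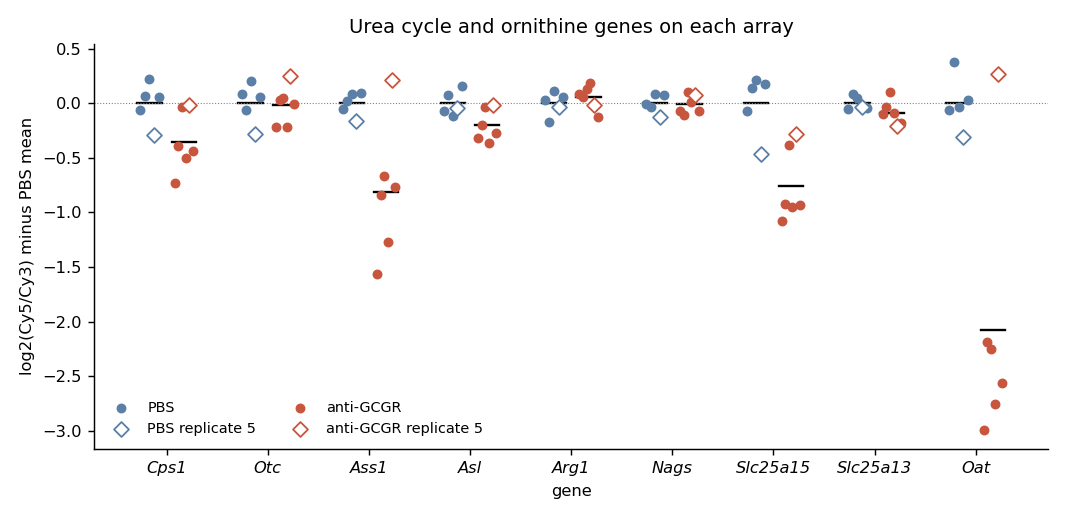
Each point is 1 array, plotted as its log2(Cy5/Cy3) minus the mean of the PBS arrays, for the 9 genes, with PBS in blue and anti-GCGR in red, replicate 5 of each group as an open diamond and group means as black bars. Oat, Ass1 and Slc25a15 lie lower on the antibody arrays, and for Oat and Ass1 the antibody replicate 5 lies above the PBS mean.

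Promoter windows from RefSeq (build GRCm38.p6, 250 bases before to 50 after each transcript start) were found for 6 of the 9 genes, and those of the genes that fell together are shown with that of Slc25a13, which did not pass, for comparison. They read 5′ to 3′ on the strand of the gene, and capitals mark the CRE core motif TGACG, part of sites that cAMP-responsive factors bind, and the CCAAT box, on either strand. Cps1, Asl and Arg1 had no window.
Oat (chr7:132576349-132576648, minus strand): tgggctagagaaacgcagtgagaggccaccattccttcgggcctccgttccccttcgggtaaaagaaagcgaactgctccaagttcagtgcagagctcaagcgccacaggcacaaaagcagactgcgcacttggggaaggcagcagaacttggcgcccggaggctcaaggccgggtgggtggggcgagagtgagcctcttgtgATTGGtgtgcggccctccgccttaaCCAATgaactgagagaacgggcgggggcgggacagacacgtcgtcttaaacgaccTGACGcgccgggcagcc
Ass1 (chr2:31470020-31470319, plus strand): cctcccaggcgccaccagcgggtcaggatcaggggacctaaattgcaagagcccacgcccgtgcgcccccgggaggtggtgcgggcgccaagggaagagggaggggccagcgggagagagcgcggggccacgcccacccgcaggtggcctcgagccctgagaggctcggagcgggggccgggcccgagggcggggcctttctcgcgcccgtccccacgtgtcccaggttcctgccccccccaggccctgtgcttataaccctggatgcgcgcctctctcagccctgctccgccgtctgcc
Slc25a15, one start (chr8:22398228-22398527, minus strand): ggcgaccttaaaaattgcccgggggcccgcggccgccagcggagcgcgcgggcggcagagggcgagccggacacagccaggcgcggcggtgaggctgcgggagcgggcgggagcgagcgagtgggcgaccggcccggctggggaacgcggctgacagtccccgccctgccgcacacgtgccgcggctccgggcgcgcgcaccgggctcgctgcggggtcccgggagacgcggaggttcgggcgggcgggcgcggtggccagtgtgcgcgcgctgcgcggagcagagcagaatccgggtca
Slc25a15, the other start (chr8:22398572-22398871, minus strand): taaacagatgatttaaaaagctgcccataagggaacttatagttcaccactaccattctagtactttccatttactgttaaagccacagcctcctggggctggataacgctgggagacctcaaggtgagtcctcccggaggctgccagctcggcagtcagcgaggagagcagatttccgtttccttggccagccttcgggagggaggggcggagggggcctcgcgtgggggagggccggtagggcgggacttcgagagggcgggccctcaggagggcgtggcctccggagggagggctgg
Slc25a13 (chr6:6217124-6217423, minus strand): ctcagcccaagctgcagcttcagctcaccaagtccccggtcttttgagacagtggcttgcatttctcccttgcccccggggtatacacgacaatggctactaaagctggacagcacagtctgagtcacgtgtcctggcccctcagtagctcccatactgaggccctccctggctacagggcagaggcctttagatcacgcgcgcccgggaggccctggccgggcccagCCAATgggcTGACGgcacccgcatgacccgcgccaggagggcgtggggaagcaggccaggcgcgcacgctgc

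In the Oat window the letters TGACG begin at base 34 after the start, and CCAAT boxes begin 47 bases (as ATTGG) and 22 bases (as CCAAT) before it. Slc25a13 has CCAAT from 22 and TGACG from 13 bases before its start. Neither motif occurs in the Ass1 window or in either Slc25a15 window, so the genes that fell do not share one of them within these windows. Among the 6 genes, TGACG or CGTCA occurred in 3 (Nags, Slc25a13 and Oat), and among all 32851 mouse windows of this length in 20.8%. CCAAT or ATTGG occurred in 2 of the 6 and in 37.4% of all windows. The TATA box TATAAA (13.6% of all windows), the C/EBP core TTGCNNAA (10.8%) and the glucocorticoid receptor motif AGAACA (19.0%) were found in none of the 6 on either strand. The HNF4-type motif AGGTCA (16.3%) was found once, in Nags, 178 bases before the start on the opposite strand. No match overlapped another in these windows. The GC content ranged from 44.3% in Otc to 79.0% in the first of the Slc25a15 windows. A match is a run of letters and was not tested as a binding site.

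Oat, which moves the amino group of ornithine onto 2-oxoglutarate and so opens the route from ornithine to glutamate and proline, had the largest change. On the PBS arrays its log2 ratio was 4.70, 5.13, 4.72, 4.45 and 4.79. On the antibody arrays it ran from 1.76 to 5.03 with a median of 2.35. Anti-GCGR replicate 5 had the highest of these values, within the PBS range, and the other antibody arrays, at 2.57 or lower, lay well under all PBS arrays. PBS arrays averaged 4.76 ± 0.25 (SD, n = 5) and antibody arrays 2.68 ± 1.19 (SD, n = 6). The difference of -2.08 (SE 0.46) had a limma adjusted p = 0.0132 and was number 4 among the falls of all genes tested. With anti-GCGR replicate 5 left out the change was -2.55 with SE 0.16 (adjusted p = 3.87e-06), or 5.86-fold, and the groups no longer overlapped. Leaving out each array in turn gave -2.55 to -1.90 and kept the call in all 11 fits. In scanner units the Cy5 signal of this probe was 69333 to 106661 in PBS, and with antibody 11308.5 at its lowest, with a median of 17521.75 and a highest value of 109530.

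Slc25a15, or ORC1, is the mitochondrial carrier that exchanges ornithine for citrulline and so links the 2 compartments of the cycle. Its log2 ratio was 3.36, 3.57, 3.64, 2.96 and 3.60 on the PBS arrays and 2.34 to 3.14 on the antibody arrays, with a median of 2.50. The groups overlapped only through PBS replicate 5, the lowest PBS array, and anti-GCGR replicates 3 (3.04) and 5 (3.14). PBS arrays averaged 3.43 ± 0.28 (SD, n = 5) and antibody arrays 2.67 ± 0.33 (SD, n = 6), a difference of -0.76 with SE 0.16 (limma adjusted p = 0.0122). It was -0.85 without anti-GCGR replicate 5 (adjusted p = 0.00135), and the call held in all 11 fits that left out 1 array. This was the dimmest probe of the group, with Cy5 signals of 564 to 890 in PBS and 296 to 717 with antibody.

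Ass1, argininosuccinate synthase, joins citrulline and aspartate and is often described as rate-limiting for the flow through the cycle. PBS arrays gave 3.97, 4.04, 4.11, 3.86 and 4.12, a narrow range, and antibody arrays 2.46 to 4.23 with a median of 3.22. Anti-GCGR replicate 5 was above every PBS array and the other antibody arrays, at 3.36 or lower, were below every one. The mean fell from 4.02 ± 0.11 (SD, n = 5) to 3.21 ± 0.61 (SD, n = 6), by 0.81 in log2 (SE 0.24, with limma adjusted p = 0.0363). The call was lost when any single array other than anti-GCGR replicate 5 was left out (adjusted p up to 0.0785). The change was larger with that array left out, at -1.02 with SE 0.15 (adjusted p = 0.000471), or 2.03-fold. A second Ass1 probe fell by 0.70 (SE 0.20, adjusted p = 0.0429 over all kept probes), from 3.42 ± 0.07 (SD, n = 5) to 2.72 ± 0.54 (SD, n = 6).

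Cps1 and Asl lay lower without passing. Cps1, carbamoyl phosphate synthetase, is the mitochondrial enzyme that commits ammonia to the cycle. Its log2 ratio was 6.27, 6.40, 6.56, 6.05 and 6.40 in PBS and 5.61 to 6.32 with antibody (median 5.92). The groups overlapped, since anti-GCGR replicates 3 (6.30) and 5 (6.32) lay within the PBS range and PBS replicate 5 lay below both of them. With all arrays the difference was -0.35 with SE 0.13 (limma adjusted p = 0.0836), and it passed at -0.42 once anti-GCGR replicate 5 was left out (adjusted p = 0.0240). Its sign depended on the ratio used, at 0.11 with the scanner software's own ratio (adjusted p = 0.717). Asl, argininosuccinate lyase, splits argininosuccinate into arginine and fumarate. It gave 4.07, 4.22, 4.03, 4.11 and 4.30 in PBS and 3.79 to 4.13 with antibody (median 3.91), with only anti-GCGR replicates 3 and 5 inside the PBS range. The change was -0.20 with SE 0.08 (adjusted p = 0.0954). It passed at -0.24 once anti-GCGR replicate 5 was left out (adjusted p = 0.0335) and at -0.21 with slide as a block (adjusted p = 0.0398).

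The other 4 genes had log2 fold changes near 0, and their groups overlapped. Otc, ornithine transcarbamylase, makes citrulline in the mitochondria. It gave 7.73, 7.58, 7.85, 7.36 and 7.71 in PBS and 7.43 to 7.90 with antibody (median 7.66), and the 95% interval of the log2 fold change of -0.02 ran from -0.23 to 0.20. A second Otc probe, printed 10 times on each array, was at -0.02 as well. The SD of its 10 spots on one array was 0.0780 to 0.168, which gives the mean of 10 spots a median standard error of 0.0313, and the SD of these means between arrays was 0.178 in PBS and 0.133 with antibody. Arg1, the liver arginase that releases urea, gave 6.26 to 6.55 in PBS and 6.31 to 6.62 with antibody, a change of 0.05 with an interval of -0.09 to 0.20. Nags makes N-acetylglutamate, the obligatory activator of Cps1, and gave 4.39 to 4.60 in PBS and 4.40 to 4.62 with antibody, a change of -0.01 with an interval of -0.14 to 0.11. Slc25a13, citrin, exports aspartate to the cytosol in exchange for glutamate and gave 4.01 to 4.15 in PBS and 3.86 to 4.17 with antibody, where replicates 1, 4, 5 and 6 were under the lowest PBS array and replicate 3 was above the highest, a change of -0.08 with an interval of -0.22 to 0.05. These 4 changes, without anti-GCGR replicate 5, were -0.07, 0.07, -0.03 and -0.06, with no call. On this ratio scale a fall of the size seen for Ass1 or Slc25a15 lies outside all 4 intervals. The intervals hold for the ratio only. With Cy5 alone, as given below, the changes of Otc, Arg1, Nags and Slc25a13 were -0.42, -0.28, -0.54 and 0.03. The reference signal of the first Otc probe was dim, with raw Cy3 of 79 to 102 units in PBS and 62 to 100 with antibody.

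**Figure D2:**
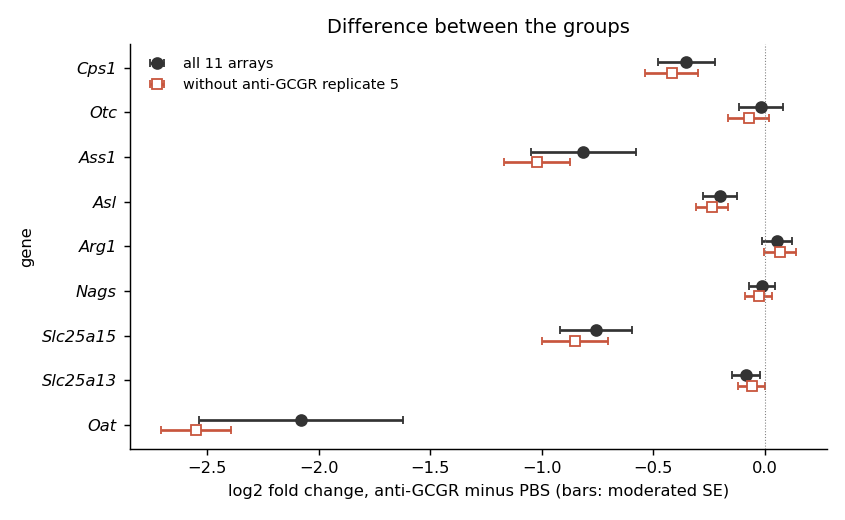
Points are log2 fold changes, anti-GCGR minus PBS, of the 9 genes with all 11 arrays (filled circles) and without anti-GCGR replicate 5 (open squares), and bars are moderated standard errors. Oat is farthest from 0 at -2.08 and moves to -2.55 without that array, while Otc, Arg1, Nags and Slc25a13 stay within 0.1 of 0.

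The number of the 9 genes that lay below the PBS arrays differed from array to array. On anti-GCGR replicates 1, 4 and 6, 6 of the 9 genes were under the lowest PBS value, on replicate 2 it was 5, on replicate 3 it was 2 and on replicate 5 it was 1, Slc25a13. PBS replicate 5 was under the PBS mean for all 9 genes. Of the 36 pairs of genes, 30 had a positive correlation of their deviations from the group means over the 11 arrays, with a median r of 0.479 and a range of -0.294 to 0.959. With anti-GCGR replicate 5 left out it was 33 pairs, with a median of 0.580. Cps1 and Slc25a15 were the closest pair (0.959), and Ass1 and Oat were at 0.918. These points share arrays, dyes and normalization, and r is given as a description. Counts of these kinds were not taken over all genes, so they do not set the 9 genes apart from others.

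The genes of the whole array whose deviations were most like those of Oat were Aldh4a1 (r = 0.988, 11 arrays), which completes the breakdown of proline and ornithine to glutamate, Gcat (0.988), of threonine and glycine breakdown, and Gpat4 (0.972), of glycerolipid synthesis. Without anti-GCGR replicate 5 these were 0.941, 0.865 and 0.792. For Ass1 they were Ivd (0.987), a leucine breakdown enzyme, Taco1 (0.981) and Selenow (0.980), and 0.964, 0.987 and 0.942 without that array. For Slc25a15 they were Aup1 (0.967), Pttg1ip (0.966) and Cps1 (0.959), and 0.963, 0.950 and 0.945 without that array. Not all of these genes were called, with limma adjusted p = 0.0930 for Gpat4, 0.730 for Aup1, 0.130 for Pttg1ip and 0.0836 for Cps1. Each r is among the highest of all genes tested, and how high such values run for other genes was not looked at.

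For Oat and Slc25a15 the liver dye differed and the reference dye hardly did, and both dyes moved for several other genes. After normalization, Cy5 of Oat differed by -1.99 on the log2 scale (antibody minus PBS, group means) and Cy3 by 0.09. For Slc25a15 the differences were -0.77 in Cy5 and -0.01 in Cy3, and for Ass1 -1.21 and -0.39. The raw Cy3 signal of Slc25a15 was only 58 to 61 units in PBS and 54 to 80 with antibody. Its local background was 26 to 34, so this Cy3 signal had little room to fall. Cps1 differed by -0.91 in Cy5 and -0.55 in Cy3, Nags by -0.52 and -0.51, Otc by -0.39 and -0.37, Arg1 by -0.30 and -0.35, and Asl by -0.40 and -0.19. Cy3 carries the same reference RNA on every array. It was lower on the antibody arrays for 7 of the 9 genes, for 6 of them by more than 0.1. Its median difference over all genes was 0.0002, but the normalization holds that median near 0. These dye values were also normalized between arrays, to the same distribution of mean brightness. The share of all genes with lower Cy3 was not taken, so these counts do not set the 9 genes apart. The raw Cy3 signal of Cps1 was 116 to 149.5 units in PBS and 66.5 to 154 with antibody. What made both dyes move was not tested.

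**Figure D3:**
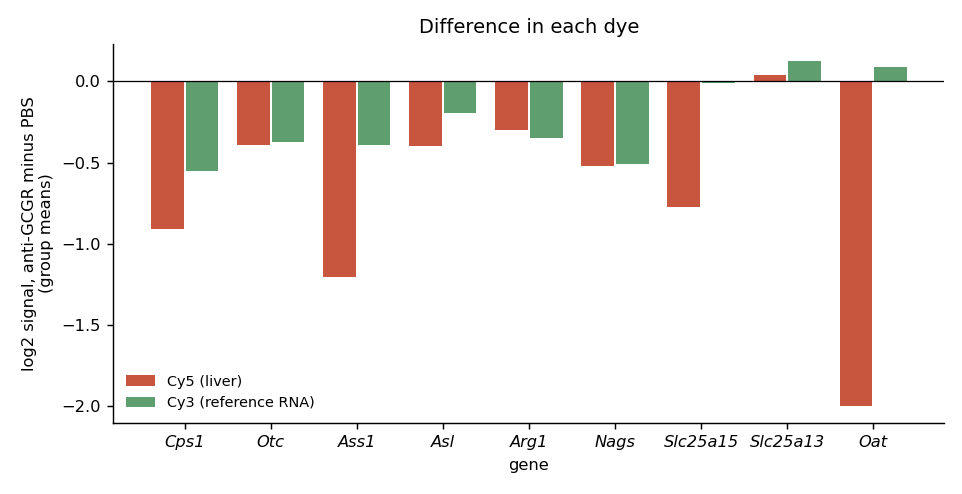
Bars are differences between group means of log2 signal, anti-GCGR minus PBS, for the liver dye Cy5 (red) and the reference dye Cy3 (green), without error bars. Oat and Slc25a15 differ in Cy5 (-1.99 and -0.77) and hardly in Cy3, whereas Nags (-0.52 and -0.51), Otc and Arg1 differ by about the same in both. The Cy3 signal of Slc25a15 is near background.

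More genes fell when Cy5 was used without the reference dye, with quantile normalization between arrays in place of loess within them, so that both choices changed at once. In that fit 6 of the 9 genes fell and 0 rose, against 7.02% of all genes lower and 7.42% higher. They were Oat (-1.91, limma adjusted p = 0.0177), Ass1 (-1.12, adjusted p = 0.0283), Cps1 (-0.94, adjusted p = 0.0236), Slc25a15 (-0.77, adjusted p = 0.0159), Nags (-0.54, adjusted p = 0.00628) and Asl (-0.38, adjusted p = 0.0335). For Otc the change in Cy5 was -0.42 (adjusted p = 0.114) and for Arg1 -0.28 (adjusted p = 0.154). Without anti-GCGR replicate 5, a choice made after the data were seen, 8 of the 9 fell in Cy5, against 11.7% of all genes, with Slc25a13 at 0.07 as the exception. Arg1 was then at -0.37 (adjusted p = 0.0208), against 0.05 as a ratio.

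The arrays lay on 3 slides, each with both groups. Within slide the change of Oat was -2.83, -0.65 and -2.61, that of Ass1 -1.44, -0.15 and -0.78, and that of Slc25a15 -1.09, -0.13 and -0.82. The small differences came from the second slide, which held PBS replicate 5 and anti-GCGR replicates 2 and 5. Cps1 was at -0.69, 0.08 and -0.30 and Asl at -0.25, -0.07 and -0.27. Otc was at -0.36, 0.43 and 0.02, Arg1 at 0.06 on each, Nags at -0.07, 0.11 and -0.01, and Slc25a13 at -0.09, -0.09 and -0.06. With slide as a block the changes were -2.20 for Oat (limma adjusted p = 0.00966), -0.87 for Ass1 (0.0210) and -0.75 for Slc25a15 (0.0150).

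Genes that feed nitrogen and bicarbonate to the cycle went both ways. Of 22 measured, 4 fell, 3 rose and 15 did not pass (median log2 fold change -0.04), and 10 passed without anti-GCGR replicate 5. Of all genes 14.7% were called with all arrays and 24.3% without that replicate, for this and the next lists. Got1, the cytosolic aspartate aminotransferase that can supply the aspartate used by Ass1, gave 2.07 to 3.43 in PBS and -0.06 to 0.89 on the antibody arrays other than replicate 5, which was at 3.21. It fell by 2.01 (SE 0.51, limma adjusted p = 0.0224). Leaving out PBS replicate 3, PBS replicate 6 or anti-GCGR replicate 4 ended the call of Got1, with an adjusted p of up to 0.0585. Gls2, the liver glutaminase that frees ammonia from glutamine, fell by 0.72 (SE 0.16, adjusted p = 0.0151). Fumarase, Fh1, which takes up the fumarate that Asl releases, fell by 0.67 (adjusted p = 0.0154), and the glutamate transporter Slc1a2 fell by 0.47 (adjusted p = 0.0448). Aqp8, a water channel that has also been reported to pass ammonia, rose by 0.96 (SE 0.23, adjusted p = 0.0179). Its adjusted p was 0.0514 without PBS replicate 1, 0.0513 with the scanner software's ratio and 0.0789 with scaling between arrays. Sirt5, a mitochondrial deacylase that acts on Cps1 protein, rose by 0.40 (SE 0.09, adjusted p = 0.0121), and did not pass with median centring (0.29, adjusted p = 0.0787). The oxoglutarate carrier Slc25a11 rose by 0.28 (adjusted p = 0.00847). The mitochondrial enzymes Glud1 (-0.15, adjusted p = 0.202), Car5a (-0.08, adjusted p = 0.488) and Got2 (0.06, adjusted p = 0.567) did not pass.

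Among genes of the other routes of arginine and ornithine, 4 of 25 measured fell, 3 rose and 18 did not pass (median -0.03), and 10 passed without anti-GCGR replicate 5. Arg2, Slc25a2, Amd1 and Pycr1 were not measured here. Aldh4a1 fell by 0.73 (SE 0.18, limma adjusted p = 0.0181), with 5.16 to 5.41 in PBS and 4.16 to 4.57 on the antibody arrays other than replicate 5 (5.40). Prodh, which starts proline breakdown, fell by 0.43 (adjusted p = 0.0418), and with Oat and Aldh4a1 it belongs to the route over glutamate semialdehyde. Slc7a2, the cationic amino acid transporter of hepatocytes, fell by 0.87 (SE 0.27, adjusted p = 0.0487). Its call was lost when any single array other than anti-GCGR replicate 5 was left out (adjusted p up to 0.105). Oaz1, the antizyme that restrains ornithine decarboxylase, fell by 0.28 (adjusted p = 0.0257). The transporter subunit Slc7a7 rose by 0.26 (adjusted p = 0.0171) and Ddah2, which breaks down methylated arginine, by 0.23 (adjusted p = 0.0193), both with no overlap between the groups. Ddah2 did not pass without PBS replicate 1 (adjusted p = 0.0553), and neither passed with median centring (adjusted p = 0.195 for Slc7a7 and 0.290 for Ddah2). Odc1, the first enzyme of polyamine synthesis, was at -0.16 (adjusted p = 0.202).

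Of 18 transcription factors and coactivators reported to act on urea cycle genes, 2 fell, 2 rose and 14 did not pass (median -0.07), and 8 passed without anti-GCGR replicate 5. Ppargc1a, a coactivator that cAMP induces in the fasting liver, gave 1.69 to 2.29 in PBS and 0.97 to 1.50 with antibody and fell by 0.80 (SE 0.11, limma adjusted p = 0.00410). Crtc2, a coactivator of CREB that glucagon signalling switches on, gave 0.51 to 0.71 in PBS and -0.06 to 0.38 with antibody and fell by 0.55 (SE 0.08, adjusted p = 0.00422). Neither overlapped between the groups, anti-GCGR replicate 5 included, and both calls held in all 11 fits with 1 array left out. Ppara rose by 0.32 (adjusted p = 0.0301) and the bile acid receptor Nr1h4 by 0.23 (adjusted p = 0.0349). These 2 calls were lost in 7 and 8 of the 11 fits with 1 array left out, with adjusted p up to 0.0773, and both with median centring (0.193 and 0.317). Hnf4a (-0.03, adjusted p = 0.708), Cebpa (0.00, adjusted p = 0.997), Creb1 (-0.17, adjusted p = 0.179) and Nr3c1 (-0.14, adjusted p = 0.154) did not pass, nor did Klf15 (-0.52, adjusted p = 0.115), a regulator of amino acid breakdown.

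**Figure D4:**
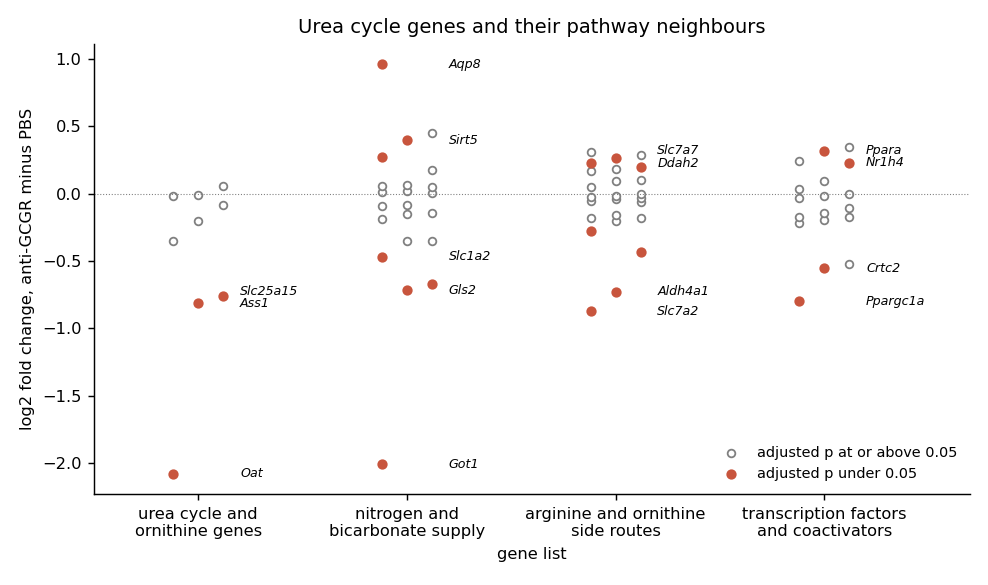
Each point is the log2 fold change of 1 gene, anti-GCGR minus PBS, in 4 gene lists, filled red where the adjusted p is under 0.05, with names for the genes of the group that fell and the largest changes of each list. The urea cycle and ornithine genes have filled points only below 0, and each of the other 3 lists has filled points on both sides.

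These are bulk liver samples, in which fewer cells of a type and less RNA per cell cannot be told apart. Hepatocyte markers such as Alb and Ttr were measured in both groups, and of 12 none passed (summed Cy5 signal 2644970 to 3160390 in PBS, 2674600 to 2957540 with antibody). Of 15 measured markers of portal hepatocytes 2 rose and 1, Gls2, fell, and 10 were below 0 (median log2 fold change -0.19). Of 16 markers of central hepatocytes, the zone of Oat, 5 fell and none rose, led by Lhpp (-1.33, limma adjusted p = 0.0123), while glutamine synthetase, Glul, was at 0.45 (adjusted p = 0.0672). Of these central markers 13 were below 0 (median -0.24). The median summed Cy5 of portal markers was 685677 in PBS and 537824 with antibody. For central markers it was 574338 and 462991, and in both zones the ranges of the groups overlapped. Stellate cell and fibroblast markers rose in 5 of 10, led by Col1a1 (1.57, adjusted p = 0.00673), and their summed Cy5 went from a range of 31796 to 34603 in PBS to one of 35315 to 53537 with antibody. Liver endothelial markers rose in 4 of 9 and red blood cell markers in 3 of 4, with Hbb-bs up by 0.89 (adjusted p = 0.00257). Kupffer cell, lymphocyte and enterocyte markers rose in 1 of 9, 1 of 8 and 2 of 5, and none of the cholangiocyte, neutrophil and adipocyte markers passed (8, 5 and 5 measured). None of these markers of other cells fell. Their part in the changes of the urea cycle genes was not tested.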

How the data were processed

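Liver total RNA was labelled with Cy5 by linear amplification and hybridised beside Cy3-labelled reference RNA, with no dye swap, per the labels' protocols. The software, per the submitters' processing notes, was Agilent Feature Extraction 11 (11.5.1.1 per the file headers). Scanner files, as deposited, hold median intensity values of both dyes and their local background, flags for spots above background, uneven or saturated, and the software's log10 ratio, Cy5 over Cy3. A further table of log2 ratios was deposited, with no account of its processing among these sources. Compared with the scanner files it ran as Cy5 over Cy3 without centring per gene (column medians -0.0028 to 0.0081, correlation with the values used here at least 0.99996), and it served as an alternative.

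In limma 3.58.1 (R 4.3.3), intensities were background-corrected by normexp (offset 50) and normalized by loess within arrays, control spots at weight 0. Uneven spots were left out and spots of a probe averaged. Probes were named through their RefSeq accession in a table of GRCm38.p6 (26581 of 39429 probes matched). A probe needed a Cy5 signal well above background on 5 or more arrays and a value on all 11, and the brightest stood for its gene, giving 15931 genes. Groups were tested by lmFit and eBayes, two-sided, Benjamini-Hochberg over all genes, threshold 0.05. The procedure was run on simulated data with independent noise of equal spread in both groups. That setting holds no deviant array and no correlated genes, so it does not cover the effect of anti-GCGR replicate 5. Named genes were the 9 members, the 2 largest rises and falls past the threshold of each pathway list, and the 3 genes most correlated with each member that passed. Further genes of the lists (among them Fh1, Slc1a2, Slc25a11, Prodh, Oaz1, Klf15, Odc1 and Glul) were named after their values were seen, and so were cell type markers. A further gene of the lists is not reported here. The members and lists were chosen with earlier results of these data known. The sample titles gave the group and the number of each array.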

Additional observations from a re-analysis of the deposited data

Results flagged for a closer look

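Single arrays stood far from the rest of their group for 11 of the genes named above. The measure was the gap to the nearest array divided by the range of the group (Dixon's criterion, which chance passes in about 5% of groups). The number of groups screened is not given here, so the flagged ones cannot be set against that 5%. Anti-GCGR replicate 5 was the highest antibody array for Oat (5.03, gap over range 0.751), Got1 (3.21, 0.709) and Aldh4a1 (5.40, 0.666), within the PBS range for each of these 3. It was also the highest for Lhpp (3.89, 0.734), Gcat (2.10, 0.824), Gpat4 (2.71, 0.657), Klf15 (6.85, 0.665) and Oaz1 (1.22, 0.635). These 8 values come from the same array and are not independent of each other, and Aldh4a1, Gcat and Gpat4 had been picked for their likeness to Oat. PBS replicate 1 was the lowest PBS array for Slc7a7 (-1.003, 0.738). Got2 was highest on PBS replicate 5 (2.13, 0.859) within PBS and on anti-GCGR replicate 2 (2.12, 0.667) within the antibody group. Odc1 was highest on PBS replicate 6 (-0.50, 0.734) within PBS and lowest on anti-GCGR replicate 6 (-1.13, 0.705) within the antibody group.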

How the results depend on the processing

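Over 15 alternatives beside leaving out single arrays, Oat kept its call in all 15 (-2.63 to -1.91), and Ass1 and Slc25a15 in 14 each, the exception being the replicate block. Of the 9 members, 5 were called with median centring, 5 with array quality weights, 5 without both replicates 5, 6 with Cy5 alone and 8 with Cy5 alone without anti-GCGR replicate 5 (alternative chosen after seeing the data), where Arg1 turned to -0.37 from 0.05. Genes called higher and lower over the array, 1435 and 904 of 15931 here, were 579 and 2146 with median centring (median shift over all genes -0.06 against 0.01), 979 and 1184 with the scanner software's ratio, 1182 and 1119 with Cy5 alone, and 2234 and 1568 with array weights (3802 in all). Without both replicates 5, 3669 genes changed (1577 lower), and with Cy5 alone without anti-GCGR replicate 5, 3997 (1859 lower). The transcription factor list had 8 calls instead of 4 with Cy5 alone with or without that array, with array weights and without both replicates 5, and 2 with scaling between arrays. Of the pathway genes named, Sirt5, Slc7a7, Ddah2, Ppara and Nr1h4 did not pass with median centring (adjusted p up to 0.317), and Aqp8, Ddah2, Ppara and Nr1h4 did not with the scanner software's ratio or with scaling between arrays (up to 0.356). The supply list had 12 instead of 7 with Cy5 alone without that array. On the gene's strand alone 0 members held the HNF4-type motif. Leaving out single arrays gave 1249 to 3866 genes changed (790 to 2295 higher, 459 to 1571 lower), 2 to 5 members, and 5 to 10, 3 to 10 and 2 to 8 genes of the supply, side route and transcription factor lists. The highest counts came without anti-GCGR replicate 5. With the replicate block 1045 genes changed (711 higher, 334 lower), 1 member (Oat, limma adjusted p = 0.0472; Ass1 0.0796, Slc25a15 0.0577), 1 gene of the supply list and 2 of the side routes. Samples of the same number did not deviate together (correlations 0.125, 0.027, -0.012, -0.126 and 0.141), so the numbers were not taken as pairs. The dim probe of Slc25a15 was above background in Cy3 on 10 of 11 arrays.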
